A study of Mus musculus with 8 samples.

Results

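The mitochondrial carrier family, whose genes are named Slc25a followed by a number, was described in the livers of mice that overexpressed Nudt7 and of control mice. The GENCODE M21 annotation of GRCm38 lists 47 genes with such a name. Slc25a15, Slc25a16, Slc25a17, Slc25a20, Slc25a42 and Slc25a51 were left aside by the rule that defined the set, which left 41 members of the 34547 genes measured. All 41 had an entry in the tables of every liver.

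Liver RNA was sequenced from 4 mice given an adeno-associated virus with mouse Nudt7 (Nudt7 livers) and from 4 given the virus with GFP, a fluorescent protein (GFP livers), all C57BL/6J. Every mouse was given 2.5e+11 viral particles by tail vein at 8 weeks of age, and liver was taken 3 to 4 weeks later, at 11 to 12 weeks, after a 24 h fast. Each library was made from whole liver of 1 mouse, the controls also carried a virus, and the labels name no promoter, serotype, sex or batch. NUDT7 is a peroxisomal hydrolase that cleaves coenzyme A and acyl-CoAs, and the comparison addressed the effect of its overexpression on gene expression in the fasted liver.

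Mitochondrial carriers are small membrane proteins, most of them in the inner mitochondrial membrane, that move metabolites, nucleotides and cofactors between the cytosol and the matrix, usually by exchanging 1 substrate for another. In liver they export citrate for lipid synthesis, pass malate, aspartate and glutamate for redox shuttles, gluconeogenesis and the urea cycle, and bring in phosphate and ADP for ATP synthesis. Coenzyme A itself is carried by members that were left aside here.

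The libraries held 11187806 to 23640734 estimated reads, enough to test 13678 genes. Nudt7 stood at 1301, 1599, 3569 and 1555 CPM (read counts scaled to a common library size) in Nudt7 livers, against 60.7, 75.9, 79.9 and 72.9 CPM in GFP livers (log2 fold change 4.79, SE 0.33, edgeR quasi-likelihood adjusted p = 0.000122). The summed hepatocyte markers Alb, Apoa1, Ttr, Cyp2e1 and Serpina1a held 53998 to 87970 CPM in Nudt7 livers, against 66785 to 82737 CPM in GFP livers. Over all genes, 6 were higher and 10 lower in Nudt7 livers at the 0.05 threshold on the adjusted p, which is 0.117% of the genes tested. Nudt7 replicate 3 stood apart from the other 7 libraries, at 63.1 on the first principal component, against −19.9 to 2.83 for the others. Genes with short transcripts were 0.36 log2 units above their mean over the 8 libraries there, and genes with long transcripts 0.31 log2 units below it (deviation −0.31). That library was the highest of 8 for 13 of the 36 tested members, for 10 of the 18 with short transcripts and for 0 of the 6 with long ones. Its red blood cell markers summed to 1813 CPM, against 303 to 642 CPM in the other 7. The part of these features in the values of the members was not tested.

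The carriers differed in level far more among themselves than between the groups. Levels are compared between genes in TPM (relative transcript abundance), which account for transcript length. Of the 41 members, 8 had a mean of at least 100 TPM over the 8 livers, 13 had 10 to under 100 TPM, 14 had 1 to under 10 TPM and 4 were detected below 1 TPM. Slc25a41 and Slc25a54 were listed at 0 in every library, which allows up to 3 reads over a group by counting error alone. Slc25a47, a carrier gene with expression concentrated in liver, was the most abundant at a mean of 1044 TPM. It was followed by Slc25a5, the main ADP/ATP carrier outside muscle, at 424 TPM, and Slc25a39, needed for glutathione uptake into mitochondria, at 381 TPM. The glutamate carrier Slc25a22 stood at 341 TPM and the phosphate carrier Slc25a3 at 309.7 TPM. Values of Slc25a5 and Slc25a39 overlapped across livers, and those of Slc25a22 overlapped with both and with Slc25a3. Slc25a3 reached at most 345.7 TPM in a liver and stayed below Slc25a39, at 350.2 TPM or more, and Slc25a5, at 374.5 TPM or more. Slc25a13, the liver form of the aspartate/glutamate carrier, had 119 TPM, the dicarboxylate carrier Slc25a10 had 116 TPM and the ATP-Mg/phosphate carrier Slc25a25 had 107 TPM. Slc25a47 alone held 23.6% to 38.5% of the summed TPM of the family in a liver, and the 10 most abundant members together held 90.5% to 93.8%.

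**Figure D1:**
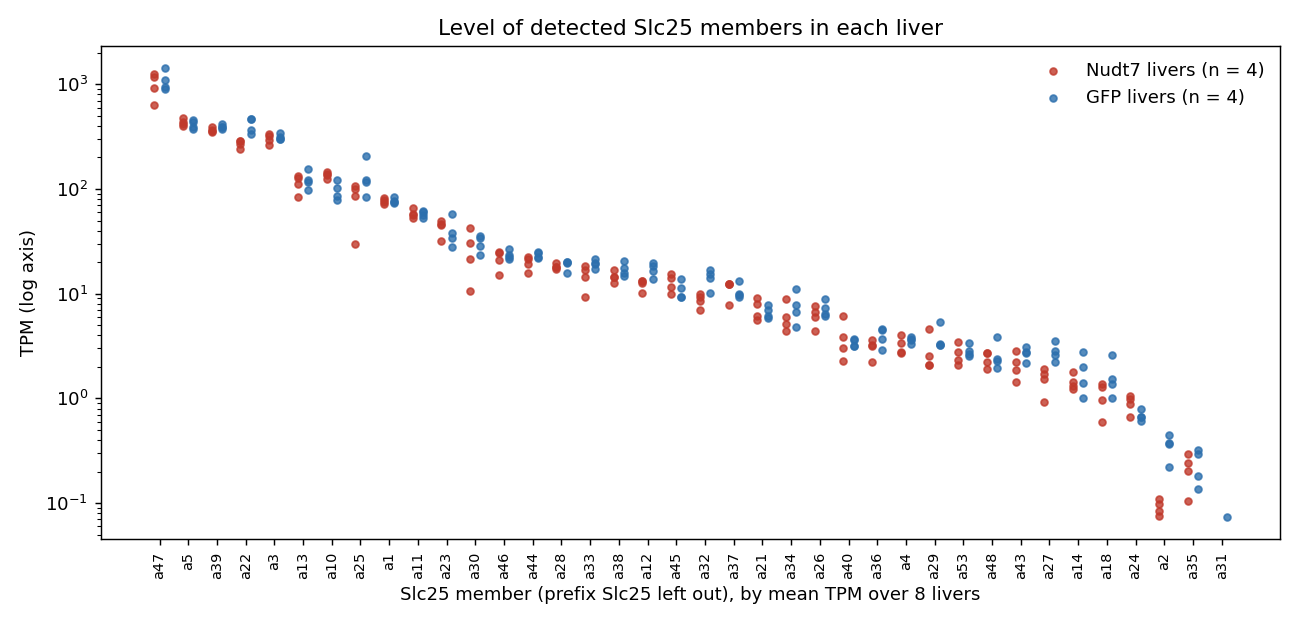
TPM (log axis) of the detected Slc25 members, apart from 1 that is not drawn, in each liver, with Nudt7 livers as red points and GFP livers as blue points, ordered by mean TPM. Members run from Slc25a47, at a mean of 1044 TPM, down to Slc25a31, which had 1 read in 1 GFP liver, and values of 0 are not drawn.

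Paralogs with the same or a related substrate differed in level to varying degrees. Slc25a5 exceeded Slc25a4, the muscle form of the ADP/ATP carrier, by 104 to 170.4 times in TPM, depending on the liver. Slc25a13 exceeded its brain and muscle counterpart Slc25a12 by 5.33 to 13.2 times. Slc25a22 exceeded Slc25a18, a second glutamate carrier, by 129 to 463 times, and Slc25a39 exceeded its relative Slc25a40 by 63.9 to 161 times. The mitoferrins, which bring iron into mitochondria, lay closer together, with Slc25a28 at 1.39 to 2.31 times the level of Slc25a37. Slc25a25 stood at 0.927 to 4.16 times the level of Slc25a23, another ATP-Mg/phosphate carrier, and the pyrimidine nucleotide carrier Slc25a33 at 2.58 to 7.52 times that of Slc25a36.

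No carrier passed the test between Nudt7 and GFP livers. Of the 41 members, 36 had enough reads to be tested, and 0 reached an adjusted p under 0.05 in edgeR's quasi-likelihood test, where 0.117% of all genes tested did (0.0439% higher and 0.0731% lower). At an unadjusted p under 0.05, 1 was higher (Slc25a10) and 3 were lower (Slc25a22, Slc25a27 and Slc25a32), 4 of 36 members, where 8.28% of all genes tested passed that mark (4.25% higher and 4.03% lower). The 36 log2 fold changes ran from −0.78 to 0.69 with 19 above and 17 below 0, and their median was 0.01, against −0.00 over all genes tested. Limma-voom also called 0 members, and DESeq2 called 1, Slc25a10. In liver tissue, fewer cells of a type and less RNA per cell cannot be told apart.

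The intervals give the size of difference that remains possible with 4 livers per group. For 30 of the 36 members the 95% confidence interval of the fold change lay within 2-fold in either direction, and for 17 it lay within 1.5-fold. The point estimate was within 0.25 log2 units of 0 for 24 members and beyond 0.4 for 7. The median coefficient of variation of the tested members was 17.3% among Nudt7 livers and 13.0% among GFP livers, and over all genes tested it was 19.8% among Nudt7 livers and 13.5% among GFP livers.

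**Figure D2:**
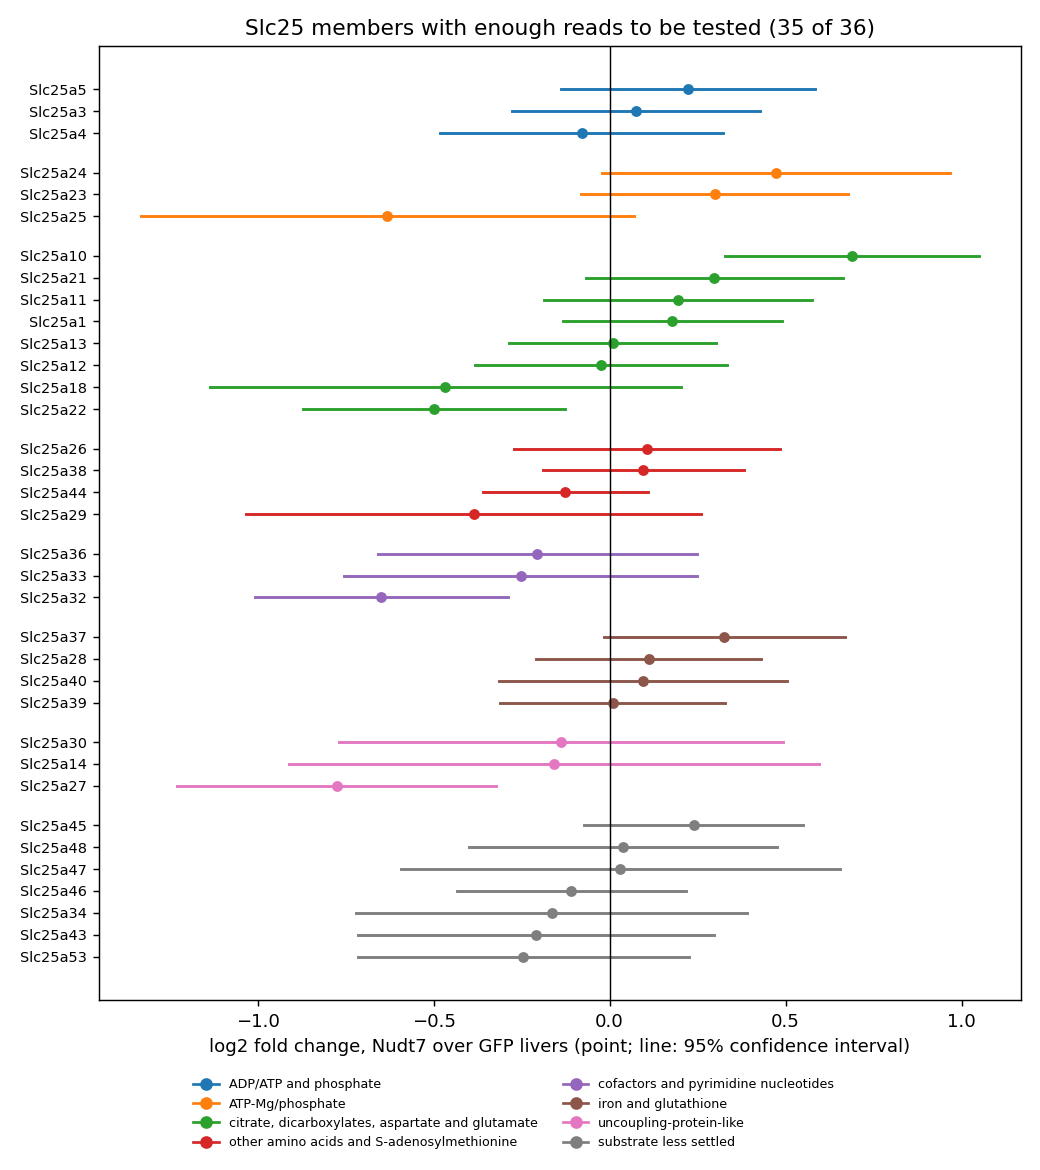
Log2 fold change of 35 of the 36 tested Slc25 members, Nudt7 over GFP livers (point), with its 95% confidence interval (line), grouped and coloured by substrate. The estimates run from −0.78 for Slc25a27 to 0.69 for Slc25a10, and the intervals of 4 members do not cross 0.

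Among the carriers of citrate, dicarboxylates, aspartate and glutamate, Slc25a10 was 1.61-fold higher and Slc25a22 was lower in Nudt7 livers, both at an unadjusted p under 0.05 and neither past the adjusted threshold. Slc25a10 exchanges malate or succinate for phosphate and supplies malate to the cytosol in gluconeogenesis. Its gene lies on chromosome 11 (120491840 to 120499187, plus strand, GRCm38). It had 169, 155, 230.4 and 144 CPM in Nudt7 livers, against 94.3, 115, 125 and 100.2 CPM in GFP livers. The lowest Nudt7 liver exceeded the highest GFP liver, which was so for 2 members, Slc25a10 and Slc25a24, where 2.74% of all genes tested lay above in this way (5.75% in either direction). Slc25a10 averaged 175 ± 38.5 CPM in Nudt7 livers, against 108 ± 13.7 CPM in GFP livers (SD, n = 4 per group), with a log2 fold change of 0.69 (SE 0.16, 95% confidence interval 0.33 to 1.05). The edgeR quasi-likelihood p was 0.00140 and the adjusted p 0.190, so the difference did not pass. DESeq2 gave a log2 fold change of 0.71 with an adjusted p of 0.0116. Without Nudt7 replicate 3, the highest library, the log2 fold change was 0.54 and the edgeR adjusted p 0.101. Leaving out each library in turn gave log2 fold changes of 0.54 to 0.78 and edgeR adjusted p-values of 0.101 to 0.535, the highest without GFP replicate 1, and limma on log2(TPM + 0.5) gave an adjusted p of 0.359. The main coding transcript, Slc25a10-201, stood at 109.5 ± 11.0 TPM in Nudt7 livers, against 77.2 ± 14.3 TPM in GFP livers (SD, n = 4 per group), and the groups did not overlap. Shares of all genes without overlap were counted in CPM only, and none was counted in TPM for genes or transcripts.

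Slc25a22, the main glutamate carrier of liver, which brings glutamate with a proton into the matrix, had the reverse sign. The gene lies on chromosome 7 (141429744 to 141437892, minus strand). It had 393, 385, 437 and 368 CPM in Nudt7 livers, against 631, 475, 423 and 707 CPM in GFP livers. The Nudt7 livers lay close together, and 1 of them exceeded the lowest GFP liver, so the groups overlapped. Its log2 fold change was −0.50 (95% confidence interval −0.87 to −0.13, SE 0.17, edgeR quasi-likelihood adjusted p = 0.460), and −0.35 without GFP replicate 4. Per length, Slc25a22 averaged 271 ± 22.8 TPM in Nudt7 livers, against 411 ± 70.6 TPM in GFP livers (SD, n = 4 per group), without overlap. With log2(TPM + 0.5) the median log2 fold change of all genes tested was itself −0.11, and the share of genes without overlap in TPM was not counted. Its reads were spread over 25 annotated transcripts, of which the largest, Slc25a22-209, held 26.4% of its TPM in Nudt7 livers and 25.7% in GFP livers.

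In TPM the dicarboxylate carrier lay wholly above and the glutamate carrier wholly below in Nudt7 livers, so their ratio could not overlap and adds nothing to those values. The TPM of Slc25a10 over that of Slc25a22 was 0.505 ± 0.0463 in Nudt7 livers, against 0.246 ± 0.0900 in GFP livers (SD, n = 4 per group). This ratio was formed after the values were seen and was not tested. Of the paralog ratios given above, all but that of Slc25a25 to Slc25a23 overlapped between the groups. Slc25a11, the oxoglutarate/malate carrier that works beside Slc25a13 in the malate-aspartate shuttle, had 51.0, 54.8, 87.6 and 54.5 CPM in Nudt7 livers, against 48.8, 50.8, 56.2 and 60.6 CPM in GFP livers. Apart from Nudt7 replicate 3, the Nudt7 livers lay inside the range of the GFP livers. Its log2 fold change was 0.19 (SE 0.17), and −0.01 without that library.

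Slc25a13 had 213, 199.8, 198 and 220.5 CPM in Nudt7 livers, against 255, 199, 194 and 179 CPM in GFP livers, which overlapped widely (log2 fold change 0.01, SE 0.13, 95% confidence interval −0.29 to 0.30). The citrate carrier Slc25a1, which exports the acetyl units used in lipid synthesis, had 77.9, 79.0, 116 and 93.2 CPM in Nudt7 livers, against 79.7, 77.2, 81.9 and 85.2 CPM in GFP livers. Its groups overlapped, and the highest value was again that of Nudt7 replicate 3 (log2 fold change 0.18, SE 0.14). The remaining members of this group were Slc25a12 at −0.02 (SE 0.16), the oxodicarboxylate carrier Slc25a21 at 0.30 (SE 0.17) and Slc25a18 at −0.47 (SE 0.31) on the log2 scale. The estimate for Slc25a12 was −0.33 with effective length offsets and −0.45 with log2(TPM + 0.5). In TPM it averaged 12.3 ± 1.54 in Nudt7 livers, against 17.0 ± 2.58 in GFP livers (SD, n = 4 per group), without overlap, a share not counted over all genes.

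**Figure D3:**
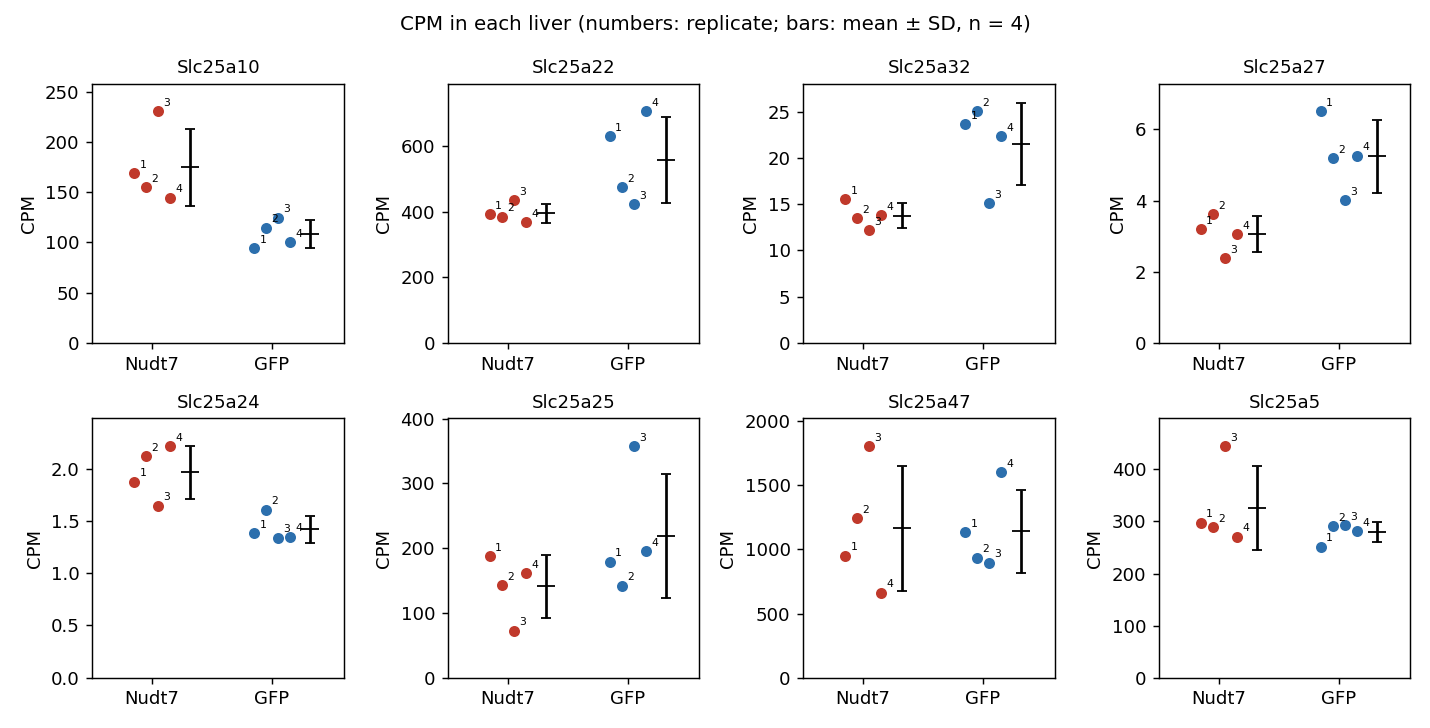
CPM of 8 Slc25 members in each liver, with Nudt7 livers in red on the left and GFP livers in blue on the right of each panel, the replicate number beside each point, and black bars for the mean ± SD (n = 4). The groups do not overlap for Slc25a10 and Slc25a24, which were higher in Nudt7 livers, or for Slc25a27, which was lower, and the vertical axes start at 0 and differ between panels.

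The ATP-Mg/phosphate carriers, which set the adenine nucleotide content of the matrix in response to calcium, had estimates of both signs. Slc25a25 is encoded on chromosome 2 (32414487 to 32451445, minus strand). It had 187, 143, 72.8 and 161 CPM in Nudt7 livers, against 179, 142, 358 and 195 CPM in GFP livers. The lowest value belonged to Nudt7 replicate 3 and the highest to GFP replicate 3, and the other 6 livers lay between 142 and 195 CPM. Its log2 fold change was −0.63 (95% confidence interval −1.33 to 0.07, SE 0.32, edgeR quasi-likelihood adjusted p = 0.641), and it was −0.40 without Nudt7 replicate 3 and −0.28 without GFP replicate 3. Slc25a23, the other abundant member, had a log2 fold change of 0.30 (SE 0.17), with 98.6 ± 13.7 CPM in Nudt7 livers, against 80.3 ± 19.1 CPM in GFP livers (SD, n = 4 per group). The TPM ratio of Slc25a25 to Slc25a23 was 1.80 ± 0.596 in Nudt7 livers, against 3.37 ± 0.721 in GFP livers and did not overlap, a ratio also formed after the values were seen and not tested. Slc25a24 was low, at 1.87, 2.12, 1.65 and 2.22 CPM in Nudt7 livers, against 1.38, 1.61, 1.34 and 1.35 CPM in GFP livers. The groups were apart in CPM by a narrow margin, from 16 to 34 reads per library (log2 fold change 0.47, SE 0.23, edgeR quasi-likelihood adjusted p = 0.611). In TPM the groups overlapped, with 0.662 TPM in Nudt7 replicate 3, against 0.787 TPM in GFP replicate 2.

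Slc25a25 has several annotated starts, and its promoters are shown because its transcripts were divided between them. The sequences are the 250 bases before 3 RefSeq starts on the minus strand of chromosome 2 (GRCm38.p6), at chr2:32451471-32451720 (upstream), chr2:32431152-32431401 (middle) and chr2:32424067-32424316 (downstream). Capitals mark matches to 1 of 9 short motifs searched on both strands.
Slc25a25 upstream start: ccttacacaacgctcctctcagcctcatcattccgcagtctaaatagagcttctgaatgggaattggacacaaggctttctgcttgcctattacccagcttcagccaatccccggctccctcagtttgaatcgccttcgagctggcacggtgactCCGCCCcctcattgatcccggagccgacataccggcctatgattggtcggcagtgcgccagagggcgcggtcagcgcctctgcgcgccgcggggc
Slc25a25 middle start: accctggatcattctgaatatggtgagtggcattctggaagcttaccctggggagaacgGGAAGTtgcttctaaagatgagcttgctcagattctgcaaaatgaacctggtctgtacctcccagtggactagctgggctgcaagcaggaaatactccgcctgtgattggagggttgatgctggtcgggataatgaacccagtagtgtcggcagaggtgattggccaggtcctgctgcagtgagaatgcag
Slc25a25 downstream start: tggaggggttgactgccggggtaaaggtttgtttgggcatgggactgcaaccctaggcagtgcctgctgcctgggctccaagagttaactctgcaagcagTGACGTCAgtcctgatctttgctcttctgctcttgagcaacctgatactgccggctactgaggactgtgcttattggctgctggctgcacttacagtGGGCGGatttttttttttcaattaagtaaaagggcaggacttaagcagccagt
The upstream window holds a GC box (GGGCGG) on the opposite strand, 95 to 90 bases before the start, a motif that 32.9% of the 27025 RefSeq promoter windows of that length hold. The middle window holds an ETS core (GGAAGT), present in 20.0% of windows. The downstream window holds a GC box and, 150 to 143 bases before the start, the palindromic cyclic AMP response element TGACGTCA, present in 1.62% of windows. None of these matches overlaps another, and a match is a description of these letters only.

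Transcripts from the upstream and downstream starts of Slc25a25 carried most of its TPM in both groups. The 2 upstream transcripts together had 32.4 ± 14.3 TPM in Nudt7 livers, against 56.8 ± 31.2 TPM in GFP livers (SD, n = 4 per group), 33.0% to 49.7% of the gene's TPM in a liver. The downstream transcript had 28.8 ± 12.5 TPM in Nudt7 livers, against 43.5 ± 19.6 TPM in GFP livers, 30.6% to 37.2% of the TPM. The 5 transcripts from the middle start together reached at most 1.07% of it. The groups overlapped for each start. Slc25a25-201, 1 of the upstream transcripts, had 6.13 ± 2.04 TPM in Nudt7 livers, against 12.6 ± 4.05 TPM in GFP livers without overlap, a share not counted over all transcripts. Estimates for transcripts that share most of their exons are less certain than those for the gene.

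**Figure D4:**
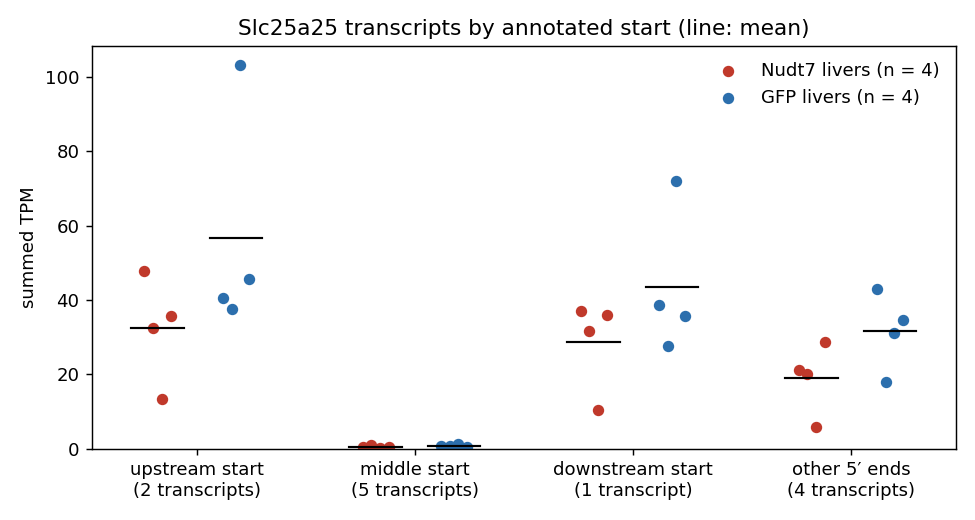
Summed TPM of Slc25a25 transcripts by annotated start in each liver, with Nudt7 livers in red on the left, GFP livers in blue on the right and a black line for the mean (n = 4 each). The upstream and downstream starts carry most of the TPM in both groups, the middle start at most 1.07%, and the groups overlap at every start.

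The ADP/ATP and phosphate carriers, which serve ATP synthesis directly, were abundant, apart from the paralogs Slc25a4 and Slc25a31, and had overlapping groups. Slc25a5 had 298, 289, 445 and 271 CPM in Nudt7 livers, against 251, 291, 293 and 282 CPM in GFP livers. Nudt7 replicate 3 was far above the rest, and the other 7 livers lay together. For this gene the log2 fold change was 0.22 (95% confidence interval −0.14 to 0.58, SE 0.16), and 0.05 without that library. Slc25a5 shares 49.4% of its 31-base words with 11 other genes, all annotated as processed pseudogenes, whose summed level was 0.308 to 1.54 TPM, so the division of reads among them is uncertain. Slc25a3 had 255, 278, 364 and 219.7 CPM in Nudt7 livers, against 258, 261, 241 and 301 CPM in GFP livers, and the groups overlapped (log2 fold change 0.07, SE 0.16). Slc25a4 was low, at 3.87 ± 0.541 CPM in Nudt7 livers, against 4.06 ± 0.421 CPM in GFP livers (SD, n = 4 per group). The germ-cell form Slc25a31 had 0 reads in every Nudt7 liver and 1 read in 1 GFP liver.

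Among carriers of cofactors and pyrimidine nucleotides, Slc25a32 had the largest difference. Slc25a32 carries folate into the matrix, and work in yeast and human cells also ties it to the supply of FAD. It had 15.5, 13.5, 12.2 and 13.8 CPM in Nudt7 livers, against 23.7, 25.05, 15.1 and 22.3 CPM in GFP livers. All GFP livers but replicate 3 lay well above the Nudt7 livers, and GFP replicate 3 lay just under the highest Nudt7 liver. EdgeR gave a log2 fold change of −0.65 (95% confidence interval −1.01 to −0.29, SE 0.16, edgeR quasi-likelihood adjusted p = 0.225), and DESeq2 gave an adjusted p of 0.0544. Per length, Slc25a32 averaged 8.73 ± 1.33 TPM in Nudt7 livers, against 14.2 ± 2.83 TPM in GFP livers (SD, n = 4 per group). The groups did not overlap in TPM, by a narrow gap between 10.03 TPM in Nudt7 replicate 1 and 10.22 TPM in GFP replicate 3. How many genes did so in TPM was not counted. The pyrimidine nucleotide carrier Slc25a33 had 16.6, 21.7, 25.9 and 10.6 CPM in Nudt7 livers, against 24.7, 21.8, 18.3 and 23.9 CPM in GFP livers, and the Nudt7 livers spread to both sides of the GFP livers (log2 fold change −0.25, SE 0.23). It was −0.05 without Nudt7 replicate 4 and −0.44 without Nudt7 replicate 3. Slc25a36, its relative, stood at −0.21 (SE 0.21).

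The uncoupling-protein-like carriers resemble the proton-leak protein of brown fat in sequence. Slc25a27, best known from brain, was low in liver and had the log2 fold change farthest from 0 among the 36 members. It had 3.20, 3.62, 2.39 and 3.06 CPM in Nudt7 livers, against 6.51, 5.18, 4.01 and 5.26 CPM in GFP livers. The highest Nudt7 liver was under the lowest GFP liver, which was so for 1 member, where 3.00% of all genes tested lay below in this way. The values rested on 29 to 47 reads per library in Nudt7 livers and 48 to 121 in GFP livers. Its log2 fold change was −0.78 (95% confidence interval −1.23 to −0.32, SE 0.21, edgeR quasi-likelihood adjusted p = 0.277). Slc25a30, the most abundant of the 3, had 33.4, 47.4, 16.1 and 23.5 CPM in Nudt7 livers, against 37.1, 30.5, 23.8 and 40.6 CPM in GFP livers, a wide spread with overlap (log2 fold change −0.14, SE 0.29). Slc25a14 was at −0.16 (SE 0.34).

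Carriers of other amino acids and of S-adenosylmethionine, the methyl donor, had estimates on both sides of 0. Slc25a44, which takes up branched-chain amino acids, had 48.4, 56.2, 54.7 and 55.4 CPM in Nudt7 livers, against 62.5, 54.8, 57.6 and 59.2 CPM in GFP livers. The groups overlapped, with a coefficient of variation of 6.62% among Nudt7 livers and 5.52% among GFP livers. Its log2 fold change was −0.13 with the smallest SE of the members named here, 0.11. Its main transcript, Slc25a44-201, had 12.4 ± 2.02 TPM in Nudt7 livers, against 17.7 ± 1.61 TPM in GFP livers (SD, n = 4 per group), without overlap, a share not counted over all transcripts. The glycine carrier Slc25a38, which feeds heme synthesis, stood at 0.10 (SE 0.13), the S-adenosylmethionine carrier Slc25a26 at 0.11 (SE 0.17) and the basic amino acid carrier Slc25a29 at −0.39 (SE 0.30) on the log2 scale. The ornithine carrier Slc25a2 had 1 read in each Nudt7 liver, against 5, 4, 2 and 7 reads in GFP livers, too few to be tested.

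Among the iron and glutathione carriers, Slc25a39 had 309, 336, 434 and 314 CPM in Nudt7 livers, against 322, 337, 325 and 401 CPM in GFP livers, with overlapping groups and a log2 fold change of 0.01 (SE 0.15, 95% confidence interval −0.31 to 0.33). Slc25a37, the mitoferrin of red blood cell precursors, averaged 33.7 ± 6.29 CPM in Nudt7 livers, against 26.8 ± 3.31 CPM in GFP livers (SD, n = 4 per group; log2 fold change 0.33, SE 0.16, edgeR quasi-likelihood adjusted p = 0.611). Nudt7 replicate 3, the library with the most red blood cell transcripts, had the lowest Slc25a37 value of the Nudt7 livers, at 24.4 CPM. Genes with long transcripts ran low in that library, and Slc25a37 is among the members with long ones. The part of either feature in this value was not tested. Without Nudt7 replicate 3 the log2 fold change was 0.46. Slc25a37 shares 7.71% of its 31-base words with other genes, and 7.32% with Gm16867. Gm16867 averaged 8.48 TPM over the 8 livers, against 10.9 TPM for Slc25a37, so the division of reads between them is uncertain. Slc25a28 stood at 0.11 (SE 0.15) and Slc25a40 at 0.09 (SE 0.19). All 4 log2 fold changes were above 0 by counts, but by mean TPM 2 of the 4 were higher in Nudt7 livers.

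Slc25a47 led the carriers with a less settled substrate, and its level varied more between livers than between groups. It had 951, 1242, 1804 and 664 CPM in Nudt7 livers, against 1132, 935, 896 and 1600.3 CPM in GFP livers. The highest and the lowest liver were both Nudt7 livers, and the coefficient of variation was 41.8% among Nudt7 livers and 28.3% among GFP livers. The estimate for Slc25a47 was a log2 fold change of 0.03 (95% confidence interval −0.59 to 0.66, SE 0.29), and −0.25 without Nudt7 replicate 3. Slc25a46, an outer membrane protein tied to mitochondrial fission and lipid transfer, stood at −0.11 (SE 0.15), Slc25a45 at 0.24 (SE 0.14), Slc25a48 at 0.04 (SE 0.20) and Slc25a34 at −0.16 (SE 0.25). The low members Slc25a43 and Slc25a53 stood at −0.21 (SE 0.23) and −0.25 (SE 0.21). Slc25a35, with 3 to 10 reads per library, was not tested.

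The promoters of the most abundant member and of the member with the lowest p are shown beside those of Slc25a25. The windows are the 250 bases before the RefSeq start, at chr12:108850879-108851128 for Slc25a47 and chr11:120491587-120491836 for Slc25a10, both on the plus strand of GRCm38.p6.
Slc25a47: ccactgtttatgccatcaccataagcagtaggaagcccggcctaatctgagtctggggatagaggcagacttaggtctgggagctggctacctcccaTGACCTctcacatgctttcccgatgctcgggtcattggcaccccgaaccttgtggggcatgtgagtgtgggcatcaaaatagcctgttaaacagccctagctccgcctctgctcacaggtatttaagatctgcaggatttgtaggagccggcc
Slc25a10: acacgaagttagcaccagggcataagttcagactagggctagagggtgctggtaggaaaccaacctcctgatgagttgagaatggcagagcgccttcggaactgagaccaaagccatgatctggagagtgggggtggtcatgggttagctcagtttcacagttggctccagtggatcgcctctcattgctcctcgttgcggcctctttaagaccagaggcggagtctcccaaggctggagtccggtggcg
The Slc25a47 window holds the nuclear receptor half-site AGGTCA on the opposite strand, marked in capitals, 153 to 148 bases before the start, a motif found in 13.8% of promoter windows. The Slc25a10 window holds none of the 9 motifs, which says only that those letters are not in it. The annotation also gives Slc25a47 a far upstream start, 162 bases from the gene Slc25a29 on the other strand. Transcripts from the start shown held 98.5% to 99.6% of the Slc25a47 TPM in a liver, and those from the far upstream start had 7.35 ± 1.80 TPM in Nudt7 livers, against 11.3 ± 2.10 TPM in GFP livers (SD, n = 4 per group). For the far upstream start the groups overlapped, with 9.10 TPM in Nudt7 replicate 4, against 8.88 TPM in GFP replicate 4.

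The summed TPM of the family was 3094 ± 302 in Nudt7 livers, against 3401 ± 256 in GFP livers (SD, n = 4 per group), and it ran from 2683 to 3370 TPM in Nudt7 livers, against 3139 to 3748 TPM in GFP livers. Without Slc25a47 the sum was 2098 ± 83.1 TPM in Nudt7 livers, against 2310.4 ± 59.7 TPM in GFP livers, without overlap. That sum was formed in TPM only and was not tested, and how often such sums lie apart was not counted. On the TPM scale the median log2 fold change of all genes tested was itself −0.11, against −0.00 for counts. By counts 19 of the 36 members were higher in Nudt7 livers, by mean TPM 10 were.

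Other genes of mitochondrial transport were read from 4 lists. Among 18 tested transporters outside the family, 0 passed edgeR's quasi-likelihood test at an adjusted p under 0.05, 0 had an unadjusted p under 0.05 and the median log2 fold change was 0.12. Those with the lowest p were Micu2, a calcium uniporter regulator, at 0.40 (SE 0.19), the sideroflexin Sfxn5 at 0.40 (SE 0.22) and Abcb10 at 0.22 (SE 0.12). Among the 16 genes that import carrier proteins, 0 passed, 0 had an unadjusted p under 0.05, and the median was 0.25 with 13 above 0. Timm29 and Timm22, parts of the complex that inserts carriers, were at 0.25 (SE 0.12) and 0.32 (SE 0.19), and Agk, another part of it, at 0.39 (SE 0.19). Their summed level was 781 CPM in Nudt7 replicate 3, 477 to 518 CPM in the other Nudt7 livers and 469 to 564 CPM in GFP livers. By mean CPM without that library, 7 of the 16 were higher in Nudt7 livers. Of 10 mitochondrial biogenesis genes 0 passed, and 2 were lower at an unadjusted p under 0.05, where 4.03% of all genes tested were. These were Ppargc1a, a coactivator of mitochondrial genes, at −0.75 (SE 0.32) and the mitochondrial DNA polymerase Polg at −0.34 (SE 0.15). The groups overlapped for both. Ppargc1a had 15.6, 9.98, 13.0 and 18.6 CPM in Nudt7 livers, against 35.0, 32.9, 16.8 and 12.4 CPM in GFP livers. Nrf1, which was at −0.18 (SE 0.11), had the next lowest p.

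Enzymes that work with the carriers in the malate-aspartate, glycerol phosphate and citrate shuttles included Got1, whose estimate was farthest from 0 among the 4 lists. Of these 9 enzymes, 0 passed edgeR's quasi-likelihood test at an adjusted p under 0.05. At an unadjusted p under 0.05, 3 of the 9 were higher and 1 was lower, where 4.25% of all genes tested were higher and 4.03% lower. Their median log2 fold change was 0.27. Got1, the cytosolic aspartate aminotransferase, had 262, 427, 412 and 378 CPM in Nudt7 livers, against 600.0, 692, 473 and 863 CPM in GFP livers. The highest Nudt7 liver was under the lowest GFP liver (log2 fold change −0.83, SE 0.21, edgeR quasi-likelihood adjusted p = 0.212), where 3.00% of all genes tested lay below in this way. Gpd1, the cytosolic glycerol phosphate dehydrogenase, had 609, 466, 576 and 491 CPM in Nudt7 livers, against 305, 369, 445 and 413 CPM in GFP livers. The lowest Nudt7 liver exceeded the highest GFP liver (log2 fold change 0.48, SE 0.15, adjusted p = 0.407 in the same edgeR test), where 2.74% of all genes tested lay above in this way. Gpd2, its mitochondrial partner, stood at 0.35 (SE 0.14), and the malic enzyme gene Me1 at 0.30 (SE 0.13). Acly, another gene of this list, also lay above without overlap, at 0.21 (SE 0.11).

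**Figure D5:**
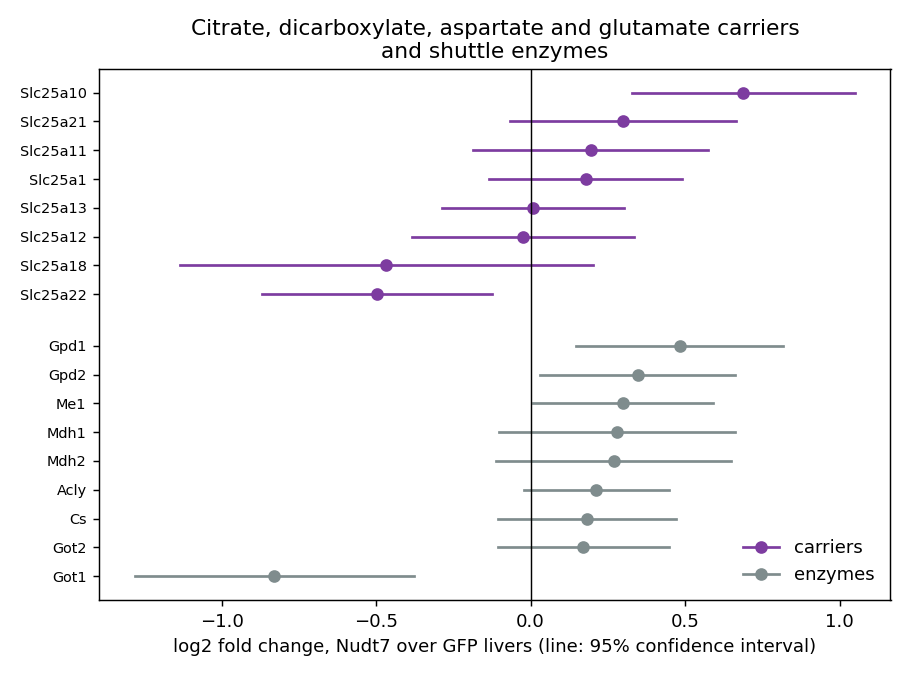
Log2 fold change, Nudt7 over GFP livers (point), with its 95% confidence interval (line), for 8 carriers of citrate, dicarboxylates, aspartate and glutamate (purple) and 9 shuttle enzymes (grey). The estimates run from −0.83 for Got1 to 0.69 for Slc25a10, and none of these genes passed the adjusted threshold.

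Markers of other liver cells were set beside these values. The 5 cholangiocyte markers summed to 31.6 to 42.5 CPM in Nudt7 livers, against 17.3 to 29.4 CPM in GFP livers, without overlap. Spp1 among them had a log2 fold change of 1.13 (edgeR quasi-likelihood adjusted p = 0.105). Only Spp1 had groups apart on its own, where 2.74% of all genes tested lay above in this way. The groups overlapped for Epcam at 0.89, Krt19 at 0.49, Sox9 at 0.32 and Krt7 at −0.05. The 4 sinusoidal endothelial markers summed to 219.9 to 257.2 CPM in Nudt7 livers, against 257.4 to 275 CPM in GFP livers, also without overlap though by a narrow gap. How often sums of several genes lie apart was not counted. Each of these 4 endothelial markers overlapped between the groups on its own, with log2 fold changes of −0.43 for Lyve1, −0.11 for Stab2, −0.11 for Pecam1 and 0.08 for Kdr. Sums for the 5 Kupffer cell markers were 81.3 to 160.2 CPM in Nudt7 livers, against 101 to 149 CPM in GFP livers, and for the 4 stellate cell markers 64.7 to 98.3 CPM in Nudt7 livers, against 81.0 to 105 CPM in GFP livers. The 3 lymphocyte markers summed to 1.15 to 2.88 CPM in Nudt7 livers, against 0.900 to 1.92 CPM in GFP livers. The 3 adipocyte markers stayed under 2 CPM in sum in every library, with Ucp1 at 0. Their part in the values of the carriers was not tested.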

How the data were processed

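Liver RNA of 8 mice, 4 per group as the labels' titles give them, was analysed from the authors' deposited tables, 1 per library. Each holds, per the file headers, an estimated count (NumReads), a TPM value and an effective length for each of 109282 transcripts. Salmon, FastQC, DESeq2 and the build GRCm38 are named in the submitters' processing notes, without a version or transcript index. By the labels' protocols, 500 ng of RNA went into a KAPA stranded mRNA kit with 9 PCR cycles.

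Transcripts were named from GENCODE M21 (98.8% matched; the rest, 0.552% to 1.06% of reads per library, were left out). Estimated counts and TPM were summed per gene, and counts were rounded to whole numbers. Groups were compared by edgeR's quasi-likelihood test (edgeR 4.0.16, R 4.3.3) with TMM scaling and filterByExpr, group against group without covariates, two-sided, adjusted by Benjamini-Hochberg over all 13678 genes tested, threshold 0.05. Library sizes behind CPM were TMM-scaled. The common dispersion came to a biological coefficient of variation of 0.196. Intervals include the spread between livers; PCR reads without molecular identifiers may be copies of 1 molecule, which lowers the precision of low members further. The script was tested on simulated data.

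Alternatives were RLE scaling, DESeq2 1.42.0, limma-voom (limma 3.58.1), no filter beyond 1 read, removal of a trend with effective length, effective length offsets, log2(TPM + 0.5) and log2(TPM + 0.1) with limma, and leaving out each library. Members, role groups and lists were chosen with earlier results of these data known. All 8 values are given for members with an unadjusted p under 0.05 or groups without overlap. They are also given for the 10 highest by TPM and for the highest of each role group. From each list of other genes up to 3 of lowest p are named. Cell type markers are given as sums, and log2 fold changes of single markers where sums of non-hepatocyte markers did not overlap. Ratios, transcripts and promoters, the family sum without Slc25a47, and Slc25a37, Me1, Acly and the single cell type markers, were chosen after values were seen. Values of 1 member are not reported here, though it stays in the fits, counts and sums. Promoter windows are from RefSeq (GRCm38.p6), in which 31 of the 41 members matched by symbol, and 9 motifs were searched (the nuclear receptor half-site AGGTCA, E-box CACGTG, GC box GGGCGG, cyclic AMP element TGACGTCA, forkhead core GTAAACA, C/EBP palindrome ATTGCGCAA, HNF1 half-site GTTAAT, ETS core GGAAGT and TATA box TATAAA). Shared words are stretches of 31 bases found in GENCODE transcripts of more than 1 gene.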

Additional observations from a re-analysis of the deposited data

Results flagged for a closer look

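In 3 of the 70 sets of 4 livers examined (35 members in each group), 1 library stood far from the other 3 of its group. Chance alone marks about 1 in 20 such sets. Slc25a5 stood at 445 CPM in Nudt7 replicate 3, above the 271 to 298 CPM of the other Nudt7 livers. Slc25a11 stood at 87.6 CPM in the same library, above 51.0 to 54.8 CPM in the others. Slc25a48 stood at 8.70 CPM in GFP replicate 3, above 5.04 to 5.55 CPM in the other GFP livers.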

How the results depend on the processing

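The count of 0 members called lower held under every alternative run, and that of 0 called higher under all but DESeq2, which called 1 (Slc25a10). Over all genes, the main counts were 6 higher and 10 lower. DESeq2 gave 89 and 64, removal of the length trend 26 and 17, both TPM settings 3 and 5, the absence of a filter 15 higher, limma-voom 4 lower and effective length offsets 6 lower. Leaving out 1 library gave 1 to 8 higher and 1 to 12 lower. The count of higher genes fell to 1 without Nudt7 replicate 1 or GFP replicate 4, to 2 without GFP replicate 2 and to 3 without GFP replicate 1. The count of lower genes fell to 1 without replicate 1 or 4 of Nudt7 or replicate 2 or 4 of GFP, to 2 without GFP replicate 1 and to 5 without Nudt7 replicate 2 or 3. Of 256 alternative values for the named members, 228 kept direction and side of the threshold and 27 changed sign. All 27 belonged to members with main log2 fold changes from −0.14 (Slc25a30) to 0.19 (Slc25a11). Slc25a47 became −0.0079 in limma-voom. With the length trend removed, Slc25a3 became −0.022, Slc25a39 −0.077 and Slc25a47 −0.046. With log2(TPM + 0.5), Slc25a1 became −0.0029, Slc25a3 −0.059, Slc25a13 −0.11, Slc25a39 −0.11 and Slc25a47 −0.16, and with log2(TPM + 0.1) the 5 values were the same to these digits; the median of all genes moved to −0.11 and −0.12 in the 2 settings. Leaving out 1 library gave −0.068 to 0.17 for Slc25a3, −0.0081 to 0.29 for Slc25a11, −0.039 to 0.14 for Slc25a13, −0.44 to 0.075 for Slc25a30, −0.10 to 0.10 for Slc25a39 and −0.25 to 0.26 for Slc25a47. The cause of these changes was not tested. No paired analysis was possible because the labels give the 2 groups no number in common, and the replicate numbers used here only name the livers. Slc25a41 and Slc25a54 had no reads. The filter on low counts also left out Slc25a2, Slc25a31 and Slc25a35; without it 39 members were tested, 0 were called and 4 were lower at an unadjusted p under 0.05, among them Slc25a2 (1 read in each Nudt7 liver, 2 to 7 reads in GFP livers, edgeR adjusted p = 0.717).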

Other observations

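For a few members the reads were assigned mainly to transcripts without an annotated full coding sequence. Slc25a43 had 100% of its TPM in Nudt7 livers and 98.0% in GFP livers on the processed transcript Slc25a43-202. Slc25a53 had 7.57% of its TPM in Nudt7 livers and 7.45% in GFP livers on coding transcripts. For Slc25a12 the largest transcript was Slc25a12-207, annotated as a target of nonsense-mediated decay, with 57.7% of the TPM in Nudt7 livers and 40.9% in GFP livers, and its coding transcripts held 18.4% in Nudt7 livers and 15.8% in GFP livers. These shares are mean values of estimates that depend on the transcript annotation. The TPM ratio of the dicarboxylate carrier Slc25a10 to the oxoglutarate/malate carrier Slc25a11 was 2.35 ± 0.321 in Nudt7 livers, against 1.66 ± 0.275 in GFP livers (SD, n = 4 per group), without overlap; it was formed after the values were seen and was not tested.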
